A study of Mus musculus with 12 samples.

Results

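Alveolar type I (AT1) epithelial nuclei were taken from single-nucleus RNA sequencing of 12 mouse lungs. A barcode was kept as a nucleus if it had 200 to 6000 detected genes and at most 5% of its unique molecular identifiers (UMIs, which count RNA molecules) from mitochondrial genes. It was counted as AT1 if it carried at least 3 UMIs over at least 2 of 6 marker genes (Rtkn2, Scel, Ager, Hopx, Lama3 and Sema3a), and more UMIs from these than from 11 genes of other lung cells (Lamp3, Slc34a2, Acoxl, Abca3, Tinag, Dnah3, Dnah5, Itga8, Scube2, Kit and Ednrb). Of 49163 barcodes, 47319 were kept and 8814 of these, 18.6%, were AT1. The study examined whether the EphB4 kinase inhibitor NVP-BHG712 changes bleomycin-induced lung fibrosis, and sequenced whole lungs of 3 mice in each of 4 groups.

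All mice were C57BL/6J, 7 weeks old at instillation, and carried no engineered allele in the snRNA-seq arm. They received bleomycin, a DNA-breaking drug that injures the lung, or PBS into the trachea. From day 5 they received NVP-BHG712 or its vehicle (N-methyl-2-pyrrolidone with polyethylene glycol) by gavage in 5 daily doses, and lungs were collected at day 14. The groups are called PBS_vehicle, PBS_NVP, Bleo_vehicle and Bleo_NVP here, and each library is 1 mouse. The inhibitor was given to the whole animal and lungs were sampled at 1 time only, which limits what a difference in AT1 nuclei can be tied to. Frozen whole lung was dounced and nuclei were sorted on DNA stain alone, with no gate for epithelium.

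AT1 cells are very thin epithelial cells that cover most of the gas-exchange surface. They share a basement membrane with capillary endothelium, and they send signals such as the growth factor Vegfa to that endothelium and to fibroblasts. AT1 cells are damaged early in bleomycin injury. New ones arise largely from alveolar type II (AT2) cells, the surfactant-producing cells, through an intermediate state that carries keratin 8 and p53 target genes.

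Libraries held 1183 to 13583 barcodes. The 3 Bleo_vehicle libraries stood apart from the other 9 before any comparison was made. Their labels carry batch numbers 6, 6 and 7, where the other libraries carry run numbers (1, 2 and 2 in PBS_vehicle, 1, 2 and 3 in PBS_NVP, 4 in all Bleo_NVP). No bleomycin group shared a run or batch number with any other group, so that run and treatment cannot be told apart wherever bleomycin-treated mice are compared below. Median mitochondrial content of AT1 nuclei was 1.02%, 0.813% and 0.404% in Bleo_vehicle mice 1, 2 and 3, and 0.0384% or less in each of the other 9 libraries. Mice of the 2 PBS groups with the same replicate number were closer to each other than mice of the same group. Their deviations from the group means correlated at 0.80, 0.31 and 0.53, and those of PBS mice with unlike numbers at -0.59 to 0.07. The chi-square per degree of freedom of their AT1 sums was 2.69, 2.76 and 2.89, against 6.49 to 15.0 between mice of PBS_vehicle and 7.10 to 15.8 between mice of PBS_NVP. The replicate number was therefore also fitted as a block among the 6 PBS mice, an alternative chosen after the data had been seen. Some Bleo_NVP mice were as close by chi-square. Bleo_NVP 2 lay at 2.24 and 2.17 from PBS_vehicle 2 and PBS_NVP 2, and Bleo_NVP 3 at 2.32 and 2.86 from the mice numbered 3. Bleo_NVP 1 lay at 14.3 and 14.6 from those numbered 1, and at 2.72 from PBS_vehicle 3. Mice of Bleo_NVP lay at 2.94 to 6.27 from each other. No pair of libraries agreed within sampling noise, and AT1 nuclei of any pair shared at most 2 barcodes. The p-values below weigh a difference against the spread between mice, with the replicate pairing left in that spread unless a block is named. They cannot separate run from treatment where bleomycin-treated mice are compared.

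The share of AT1 nuclei did not separate the groups. It was 20.3%, 13% and 15.4% in the PBS_vehicle mice, 19.1%, 13.5% and 17.9% in PBS_NVP, 14.6%, 18.3% and 21.7% in Bleo_vehicle, and 20.3%, 15.1% and 16.4% in Bleo_NVP. All 4 ranges overlapped. Group means were 16.2% ± 3.70, 16.8% ± 2.97, 18.2% ± 3.56 and 17.3% ± 2.68 (SD, n = 3). The largest of 4 differences, Bleo_vehicle minus PBS_vehicle, was 2.00 percentage points (two-sided exact permutation test, p = 0.6, adjusted p = 0.9 over the 4 comparisons). With 3 mice a group this test cannot go below 0.1. The direction of this difference turned under 3 other definitions of the members, to -0.13 without nuclei that also met another class's rule, to -0.36 with a stricter marker rule and to -3.02 with markers at 0.5% or more of UMIs.

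The share of an AT1 nucleus's UMIs that came from the 6 markers was lowest in Bleo_vehicle. The rule used these UMIs, so the values are a description. The median AT1 nucleus carried 9, 14 and 47 UMIs of the 6 markers in Bleo_vehicle mice 1, 2 and 3, and 41 to 128 in the other libraries, so that mouse 3 lay within the range of the others. As a share of all UMIs of the nucleus, the medians were 0.519%, 0.668% and 0.790% in Bleo_vehicle and 1.30% to 1.58% elsewhere, with no overlap. Nuclei in which markers made up at least 0.5% of UMIs were 52.1%, 62.5% and 65.1% of the AT1 nuclei in Bleo_vehicle, against 81.3% to 94.1% in the others. Across all members the median was 53 marker UMIs over 5 of the 6 genes, and 35.4% of nuclei had all 6. At the threshold, 667 nuclei had exactly 3 marker UMIs, 1050 barcodes fell 1 UMI short, 395 had enough UMIs from only 1 marker, and 1345 were kept out by the other cells' genes.

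**Figure D1:**
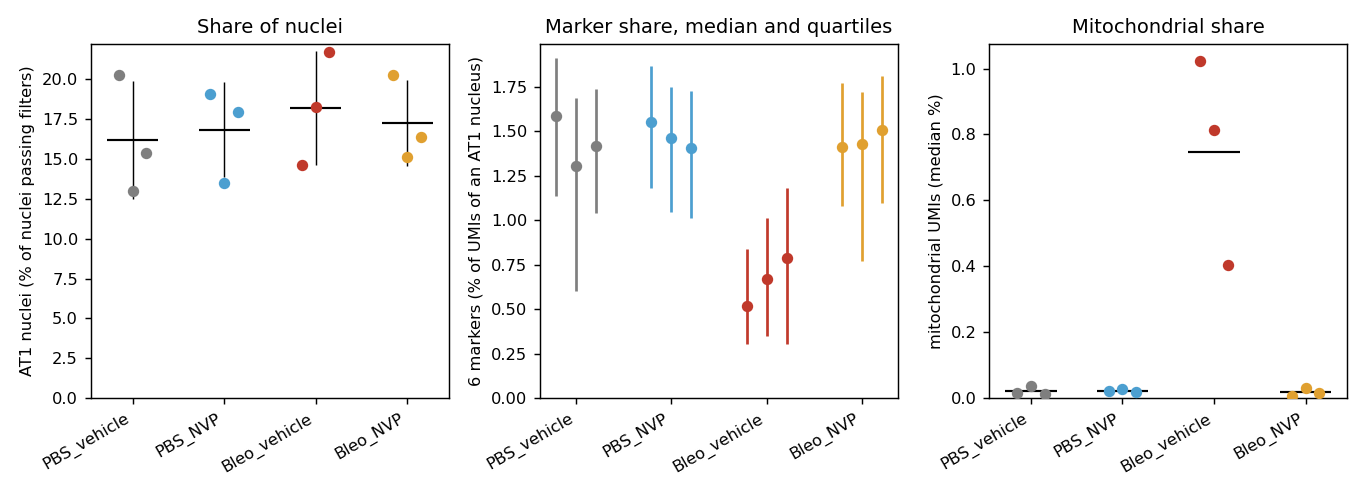
Panels over the 12 libraries by group: the percent of nuclei that were AT1 (points are mice, bars mean and SD), the percent of a nucleus's UMIs from the 6 markers (point median, line quartiles), and the median percent of mitochondrial UMIs in AT1 nuclei. The AT1 share overlaps between all groups, while the 3 Bleo_vehicle libraries lie lowest in the marker panel (0.519% to 0.790%) and highest in the mitochondrial panel (0.404% to 1.02%).

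The 6 markers did not move as a block. Levels of a gene in a mouse, here and below, are CPM. They are its UMIs summed over the AT1 nuclei of a mouse and divided by the TMM-scaled total of that mouse. Summed levels of marker lists use the unscaled total. Levels over all AT1 nuclei, all libraries or a whole class pool the UMIs of the 12 libraries without scaling. Bleo_vehicle 3 gave 21542119 of the 57364348 pooled AT1 UMIs. Rtkn2, the gene of rhotekin 2, was at 2922, 3978 and 4363 CPM in Bleo_vehicle and at 7047 to 8569 CPM in the other 9 libraries. Hopx, a homeodomain cofactor that marks AT1 cells, was at 738, 779 and 979 CPM against 1374 to 1614. Lama3, a laminin chain of the epithelial basement membrane, was at 516, 530.4 and 542 CPM against 1117 to 1480. These 3 genes were thus low in each Bleo_vehicle mouse. Scel, a precursor protein of the cornified envelope, was at 1380, 429 and 601 CPM in Bleo_vehicle against 950.6 to 1356 elsewhere, low in mice 2 and 3 but not in mouse 1. Sema3a was likewise at 2332, 837 and 1467 CPM in Bleo_vehicle against 1885 to 3863 CPM, with mouse 1 within the range of the others. Ager, the receptor for advanced glycation end products and a classic AT1 protein, had another pattern. It was at 290.5 and 278 CPM in the 2 libraries of run 1 (PBS_vehicle 1 and PBS_NVP 1), 138 to 206 CPM in Bleo_vehicle, and 88.7 to 134 CPM in the remaining 7.

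The 20 AT1 genes that the rule did not use gave the check of identity. All 20 of 20 were higher in the AT1 nuclei than in all other nuclei, by a median of 10.3 times (2.03 to 29.7), and 18 of 20 were higher than in each of 14 other marker-defined classes. Akap5, a kinase-anchoring protein, was at 416 CPM over all AT1 nuclei, 29.7 times the level of the rest. Col4a3, a type IV collagen chain of the alveolar basement membrane, was at 1995 against 78.2 CPM. Pdpn, the membrane glycoprotein podoplanin, was at 236 against 21.1 CPM, and Vegfa at 1865 against 177 CPM. These values describe nuclei chosen by co-expressed markers and carry no test. Per mouse, Pdpn was at 206, 235 and 187 CPM in PBS_vehicle and at 269, 284 and 234 CPM in Bleo_vehicle, so that the groups overlapped.

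RNA of other cells was present as well. Of the AT1 nuclei, 40.2% also met the marker rule of another class. It was 12.3%, 30.1% and 62.4% in Bleo_vehicle 1, 2 and 3, 50.3% in PBS_vehicle 1 and 38.7% in PBS_NVP 1. The other libraries had 7.53% (Bleo_NVP 1) to 22.7% (Bleo_NVP 2). With the club rule left aside, the highest were 37.8% in Bleo_vehicle 3 and 29.1% in PBS_vehicle 1. No doublet caller was run here. Summed levels of 11 genes common in free RNA (surfactant, lysozyme, club cell and hemoglobin genes) were 326, 2126 and 1992 CPM in Bleo_vehicle and 147 to 964 CPM elsewhere. Fibroblast markers summed to 106.5, 185 and 169 CPM in Bleo_vehicle against 12.99 to 102 CPM, smooth muscle markers to 21.2, 13.5 and 17.2 against 1.61 to 5.69, and T and NK cell markers to 25.7, 33.3 and 23.3 against 0.456 to 13.7. Mesothelial markers reached 181 CPM in Bleo_vehicle 1 and 0.488 to 54.3 CPM in the others. Interstitial macrophage and monocyte markers were at 119.5 to 136 CPM in Bleo_vehicle and reached 119.1 CPM elsewhere. Lists of the remaining classes overlapped between Bleo_vehicle and the other libraries. Club markers were at 160.9, 930.7 and 1103 CPM in Bleo_vehicle and 265 to 863.7 CPM elsewhere. General capillary markers were at 7.553, 42.59 and 33.38 against 5.932 to 46.07, and alveolar macrophage markers at 39.28, 58.23 and 101.1 against 3.795 to 157.7. No marker in these lists was at 0 in all 12 AT1 sums. The part of this RNA in the differences below was not tested, and genes of which some other class held over 10 times the AT1 level are pointed out.

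The first comparison, Bleo_vehicle against PBS_vehicle, asks what bleomycin did to AT1 nuclei without the inhibitor. The phosphodiesterase gene Pde8b, the phospholipid synthesis gene Chpt1, the Wnt ligand gene Wnt3a and the clock gene Nr1d1 fell, while mitochondrial transcripts and the kinase gene Dclk1 rose. Of 10359 genes tested with edgeR (quasi-likelihood, adjusted p under 0.05), 308 differed, 2.97%: 167 were higher in Bleo_vehicle (1.61%) and 141 lower (1.36%). Some other class held over 10 times the AT1 level of 64 of the 167 higher genes and of 1 of the 141 lower genes, as of 14.3% of all tested genes. The count rested in part on single mice, and was 69 without PBS_vehicle 3, 87 without PBS_vehicle 2 and 81 without Bleo_vehicle 2. With the replicate block among the PBS mice it was 1038, of which 690 were higher and 348 lower.

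Among the 10 named rises, Dclk1, a doublecortin-like kinase that binds microtubules (GRCm38 chromosome 3, 55242364 to 55539068), was the most even. It was at 15.7, 20.2 and 17.97 CPM in PBS_vehicle and at 74.6, 67.7 and 83.8 CPM in Bleo_vehicle, which is 2.09 ± 0.23 on the log2 scale (SE throughout, edgeR adjusted p = 0.00078). No mouse of 1 group came near the other group. Tenm2, a transmembrane teneurin (chromosome 11, 36006656 to 37235964), changed most, from 0.503, 0.5602 and 3.99 CPM to 51.9, 21.1 and 24.4 CPM (log2 4.70 ± 0.85, edgeR adjusted p = 0.0157). Ptgs1, the constitutive cyclooxygenase, was at 7.297, 7.28 and 13.98 CPM and then at 127, 37.8 and 33.9 CPM, with mouse 1 far above mice 2 and 3. The same mouse was highest for S100a10, the annexin A2 partner, at 81.1 CPM against 16.98 and 27.9, and for Phlda1 at 82.8 CPM against 33.96 and 31.6. Fth1, the ferritin heavy chain that stores iron, was at 11.95, 3.36 and 1.33 CPM and then at 60.04, 33.7 and 27.9 CPM. Ttc9, Litaf, C77080 and Lars2, the mitochondrial leucyl-tRNA synthetase, rose by over 2 log2 units. For each of the 10, at least 1 other class had a higher level over all libraries.

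Among the 10 named falls were several genes that AT1 nuclei held at more than the level of other nuclei. Over all libraries Wnt3a, Wnt10b, Slc1a1 and Epb41l3 were highest in AT1 nuclei. Another class held more of Pde8b, Chpt1, Slc2a12, Smad9, Pgpep1l and Nr1d1. The aerocyte class of capillary nuclei held 1608 CPM of Pde8b against 705 CPM in AT1 nuclei. Ciliated nuclei held 372 CPM of Chpt1 against 260 CPM. Pde8b, a phosphodiesterase that breaks down cyclic AMP (chromosome 13, 95024454 to 95250336), was at 878, 1289.6 and 1366 CPM in PBS_vehicle and at 80.3, 233 and 277 CPM in Bleo_vehicle (log2 -2.56 ± 0.39, edgeR adjusted p = 0.0069). Chpt1, which makes phosphatidylcholine in the last step of its synthesis (chromosome 10, 88452745 to 88504073), was at 299, 387 and 427 CPM and then at 98.98, 119.9 and 164 CPM (log2 -1.52 ± 0.21, edgeR adjusted p = 0.0033). Slc1a1, a glutamate and cysteine transporter, was at 108, 148 and 148 CPM and then at 30.8, 42.98 and 61.4 CPM. In these 3 genes every Bleo_vehicle mouse lay below every PBS mouse, with and without inhibitor. Both Wnt ligands named by the rule fell. Wnt3a (chromosome 11, 59248033 to 59290752) was at 169, 151 and 161 CPM and then at 30.02, 61.9 and 66.7 CPM (log2 -1.55 ± 0.23, edgeR adjusted p = 0.0045), and Wnt10b was at 32.96, 30.8 and 41.9 CPM and then at 8.11, 13.97 and 10.2 CPM. Over all libraries AT1 nuclei held 31.1 times the Wnt3a level and 15.2 times the Wnt10b level of the other nuclei. Smad9, a transducer of BMP signals, Slc2a12, a glucose transporter, Epb41l3, a band 4.1 protein of the membrane skeleton, Pgpep1l and the clock gene Nr1d1 made up the rest, and their log2 changes lay between -3.58 and -1.58. When AT1 nuclei were held to at least 0.5% marker UMIs, 107 genes were called, and 10 of the 20 named genes kept their call, Wnt3a among them (edgeR adjusted p = 0.0136) but not Wnt10b (edgeR adjusted p = 0.0728).

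**Figure D2:**
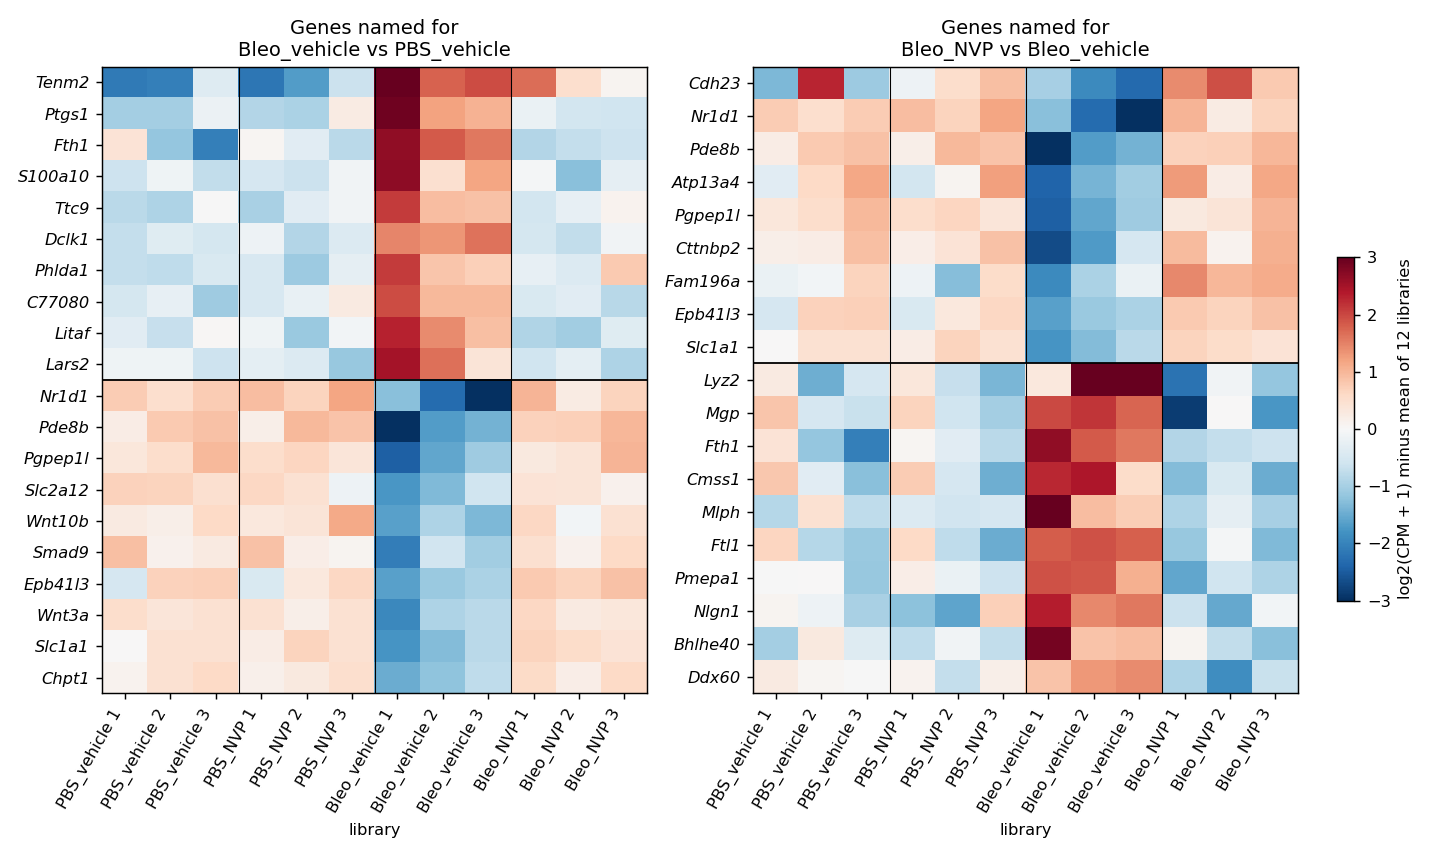
Heatmaps of named genes of Bleo_vehicle against PBS_vehicle and of Bleo_NVP against Bleo_vehicle, 1 row a gene and 1 column a library. Colour is log2(CPM + 1) minus the mean of the 12 libraries, and the 3 Bleo_vehicle columns stand apart from the other 9 in most rows.

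The second comparison, Bleo_NVP against Bleo_vehicle, asks what the inhibitor changed after bleomycin. It uses the same 3 Bleo_vehicle libraries as the first, so the 2 sets of values are not independent, and opposite signs can come from those libraries alone. edgeR called 972 genes (9.38%), 383 higher in Bleo_NVP (3.70%) and 589 lower (5.69%). Some other class held over 10 times the AT1 level of 4 of the 383 higher genes and of 321 of the 589 lower genes. The count was 234, 484 and 238 without Bleo_NVP 1, 2 and 3, and 291 without Bleo_vehicle 2. With the replicate block among the PBS mice it was 1797.

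Of the named rises, Pde8b was at 1197, 1229.5 and 1502 CPM in Bleo_NVP (log2 2.71 ± 0.39, edgeR adjusted p = 0.0046), Slc1a1 at 173, 158 and 145 CPM (log2 1.76 ± 0.23, edgeR adjusted p = 0.0018), and Epb41l3 at 372, 343 and 399 CPM (log2 1.97 ± 0.34, edgeR adjusted p = 0.0085). Each of these ranges lay above the Bleo_vehicle range. Cttnbp2, which binds the actin regulator cortactin, was at 25.96, 52.4 and 121 CPM in Bleo_vehicle and at 337, 187 and 366 CPM in Bleo_NVP. Over all libraries Cttnbp2, Epb41l3 and Slc1a1 were higher in AT1 nuclei than in any of the other 14 classes. Cdh23, a cadherin, had the largest log2 change, 3.75 ± 1.03, but was also uneven among PBS_vehicle mice at 4.91, 71.7 and 5.99 CPM. Nr1d1, Atp13a4, Pgpep1l and Fam196a rose by 3.56, 2.43, 2.33 and 2.05 log2 units.

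The named falls were genes that at least 1 other class held more of. Lyz2, the lysozyme of macrophages and AT2 cells, was at 19.5, 171 and 150.4 CPM in Bleo_vehicle and at 2.59, 14.3 and 6.43 CPM in Bleo_NVP (log2 -3.82 ± 0.85, edgeR adjusted p = 0.0232). Mgp, an inhibitor of calcification that fibroblasts make, was at 76.3, 85.5 and 64.6 CPM and then at 1.73, 18.7 and 4.82 CPM. Lyz2 was highest in AT2 nuclei and Mgp in fibroblast nuclei of this series. The ferritin chains Fth1 and Ftl1 fell by 3.00 and 2.80 log2 units. Pmepa1, a target and inhibitor of TGF-β signalling, was at 68.2, 65.5 and 37.4 CPM and then at 5.18, 11.02 and 8.58 CPM (log2 -2.73 ± 0.39, edgeR adjusted p = 0.0035). Ddx60, an RNA helicase of the antiviral response, was at 20.3, 28.2 and 30.3 CPM and then at 5.18, 2.204 and 6.43 CPM. Mlph, Cmss1, Nlgn1 and Bhlhe40 had log2 changes of -2.92, -2.95, -2.60 and -2.58. With at least 0.5% marker UMIs a nucleus, 269 genes were called and 11 of these 20 named genes kept their call.

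The gene lists are taken by the roles of AT1 cells, beginning with their identity. The counts of each list stand beside the shares over all tested genes. These were 1.61% higher and 1.36% lower in the first comparison, and 3.70% and 5.69% in the second. Of the 20 AT1 genes outside the rule, 0 were higher and 2 lower in Bleo_vehicle than in PBS_vehicle, 16 of 20 had a negative log2 change, and their median was -0.39, beside 0.03 over all tested genes. The 2 were Limch1, an actomyosin regulator (7504, 8745 and 8827 CPM, then 4338, 5464 and 6312 CPM, log2 -0.64 ± 0.16, edgeR adjusted p = 0.0499), and Vegfa (2194, 1887 and 2199 CPM, then 1445, 1395 and 1361 CPM, log2 -0.58 ± 0.13, edgeR adjusted p = 0.0296). Vegfa was also detected in fewer nuclei when each was thinned to 1000 UMIs: 67.7%, 68.4% and 62.6% of AT1 nuclei in Bleo_vehicle and 75.7% to 84.3% in the other libraries. Capillary nuclei, which have some Vegfa, gave 0% to 29.8% under the same thinning. Unthinned shares of AT1 nuclei were 84.0% to 85.7% in Bleo_vehicle and 81.7% to 94.9% elsewhere. In Bleo_NVP against Bleo_vehicle, 4 of the 20 were higher and 0 lower: Limch1 (log2 0.72), Clic5, an intracellular chloride channel protein (0.68), Vegfa (0.54) and Cav1, the coat protein of caveolae (0.84), with a list median of 0.41 beside -0.06. Restricted to nuclei with at least 0.5% marker UMIs, 0 of 20 were called in either comparison. Fewer of all genes were called at that setting too, as given above, so few calls in a short list say little there.

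The epithelial regulators gave 1 call of 14 after bleomycin. Foxp2, a forkhead repressor of lung epithelium, was at 759.6, 998 and 1078 CPM in PBS_vehicle and at 300.2, 366 and 561 CPM in Bleo_vehicle (log2 -1.20 ± 0.24, edgeR adjusted p = 0.0202). It was at 1137, 1029 and 1152 CPM in Bleo_NVP (log2 1.43 ± 0.24, edgeR adjusted p = 0.0065). In that second comparison 3 of 14 were higher, the others being Gata6 (0.75) and the YAP partner Tead1 (0.60), and Etv5, which AT2 nuclei held at over 10 times the AT1 level, was lower (-1.78). Of 12 YAP target genes 0 were called after bleomycin (median log2 0.73) and 3 fell with the inhibitor: Crim1 (-1.76), Axl (-3.16) and Amotl1 (-1.48). Some other class held over 10 times the AT1 level of Crim1 and Axl.

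Among genes of the barrier and the basement membrane, Npnt had the smallest p. Npnt encodes nephronectin, a matrix ligand of integrin α8β1 (chromosome 3, 132881745 to 132950291). It was at 699, 655 and 700.2 CPM in PBS_vehicle, 674, 826 and 635 CPM in PBS_NVP, 299, 288 and 324 CPM in Bleo_vehicle, and 741, 749.7 and 658 CPM in Bleo_NVP. Each Bleo_vehicle mouse thus lay below the lowest of the other 9 mice. The log2 change was -1.17 ± 0.13 after bleomycin (edgeR adjusted p = 0.00081) and 1.24 ± 0.13 with the inhibitor (edgeR adjusted p = 0.00071). It was the 1 call among 18 basement membrane genes in the first comparison, and fibroblasts were the class with the highest Npnt level. In the second, Col4a2, a widely expressed type IV collagen chain, was also called (log2 -0.84). Of 14 junction genes 0 were called after bleomycin, and 3 rose with the inhibitor: the scaffold genes Magi3 (1.11) and Magi1 (0.65) and the tight junction gene Ocln (0.57). Aqp5, the AT1 water channel, was at 93.6, 49.3 and 83.2 CPM in PBS_vehicle and at 41.4, 44.5 and 52.1 CPM in Bleo_vehicle, which overlapped (log2 -0.71, edgeR adjusted p = 0.187).

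Ligands that AT1 cells send to their neighbours came next. Of 17 tested, 3 fell after bleomycin: Wnt3a, Vegfa and Pdgfa, the growth factor for alveolar fibroblasts. Vegfa is also in the list of AT1 genes outside the rule and is counted in both. Pdgfa was at 257, 222 and 255 CPM in PBS_vehicle, 161, 161 and 155 CPM in Bleo_vehicle, and 276, 201 and 241 CPM in Bleo_NVP (log2 -0.62 and 0.59, edgeR adjusted p = 0.0382 and 0.0274). With the inhibitor 4 rose, these 3 and Sema3e (log2 1.12), a semaphorin that guides vessels, and Edn1 fell (-3.13), a gene that general capillary nuclei held at over 10 times the AT1 level. The median of the list was -0.12 and 0.08. In nuclei with at least 0.5% marker UMIs 1 of 16 ligands was called after bleomycin, Wnt3a, and 1 of 16 with the inhibitor. In a fit of only the 6 libraries of the first comparison 0 of 18 were called there. Of 11 receptors for matrix 0 were called after bleomycin, and Cd44 (-1.95) and Itga6 (-1.96) fell with the inhibitor, both held at over 10 times the AT1 level by another class.

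Genes of the AT2-to-AT1 intermediate state had positive log2 changes in 17 of 17 after bleomycin, with a median of 1.08, and 2 were called. These were Fn1, fibronectin (25.2, 8.96 and 27.3 CPM, then 132, 100.2 and 85.4 CPM, log2 2.33, edgeR adjusted p = 0.0245), and Tnc, tenascin C (1.64, 3.92 and 1.997 CPM, then 38.1, 47.9 and 17.4 CPM, log2 3.89, edgeR adjusted p = 0.0029). Both are matrix genes, and interstitial macrophages and monocytes held over 10 times the AT1 level of Fn1, and pericytes of Tnc. Krt8, the keratin that names the state, was at 21.4, 16.2 and 17.3 CPM in PBS_vehicle and at 60.9, 21.3 and 21.4 CPM in Bleo_vehicle, with mouse 1 alone well above (log2 0.81, edgeR adjusted p = 0.255). Per nucleus thinned to 1000 UMIs, Krt8 was found in 5.95%, 2.48% and 2.31% of AT1 nuclei in Bleo_vehicle and in 0% to 2.49% elsewhere, with 0% to 0.763% of capillary nuclei. Unthinned, the shares of AT1 nuclei were 5.98% to 12.8% and 7.76% to 16.4%. Cldn4, another marker of that state, was found in at most 0.184% of thinned AT1 nuclei of any mouse.

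With the inhibitor 4 of these 17 fell (Tnc, Fn1, Sfn and Plaur), and 0 of those tested were called in nuclei with at least 0.5% marker UMIs. Of 14 p53 targets 0 were called after bleomycin, at a median log2 of 0.84 with 9 of 14 not overlapping between groups, where 22.8% of all tested genes did not overlap. Cdkn1a, the gene of the cell cycle inhibitor p21, was at 7.17, 2.24 and 18.6 CPM in PBS_vehicle and at 57.6, 25.6 and 25.3 CPM in Bleo_vehicle (log2 1.97, edgeR adjusted p = 0.218). With the inhibitor Fas (-1.29), a death receptor gene, and Plk2 (-1.86), a polo-like kinase gene, fell.

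Other lists held few or no calls. Of 13 immediate-early genes, which respond quickly to stress, 0 were called in either comparison. Of 11 interferon and antigen presentation genes 0 were called after bleomycin, and H2-D1 (-1.06) and Stat2 (-1.09) fell with the inhibitor. Only 2 of 12 proliferation genes passed the filter on low counts, and neither was called. Of 13 Eph receptor and ephrin genes that could be tested, 0 were called in either comparison. Ephb4, the target of the inhibitor, was at 15.5, 9.52 and 13.3 CPM in PBS_vehicle, 13.1, 6.72 and 8.61 CPM in PBS_NVP, 11.4, 25.8 and 16.4 CPM in Bleo_vehicle, and 17.3, 6.06 and 10.7 CPM in Bleo_NVP, with all 4 groups overlapping. Its log2 change was 0.49 ± 0.39 after bleomycin (edgeR adjusted p = 0.529) and -0.73 ± 0.41 with the inhibitor (edgeR adjusted p = 0.278). General capillary nuclei held 218 CPM of Ephb4 and 699.5 CPM of its ligand Efnb2, against 15.5 and 40.7 CPM in AT1 nuclei.

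All 12 tested transcripts of the mitochondrial genome were higher in Bleo_vehicle than in PBS_vehicle (median log2 4.29) and lower in Bleo_NVP than in Bleo_vehicle (median -4.00). The gene mt-Co3, for a subunit of cytochrome oxidase, was at 58.9, 90.2 and 39.3 CPM in PBS_vehicle, 1509, 1653 and 796 CPM in Bleo_vehicle, and 75.2, 118 and 93.3 CPM in Bleo_NVP. Mitochondrial transcripts are made outside the nucleus. The surfactant gene Sftpc, which AT2 cells express, was at 92.5, 50.4 and 38.6 CPM in PBS_vehicle and at 86.8, 876 and 721 CPM in Bleo_vehicle (log2 3.18, edgeR adjusted p = 0.0311), so that mice 2 and 3 but not mouse 1 were high. It was at 51.8 to 92.0 CPM in Bleo_NVP.

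**Figure D3:**
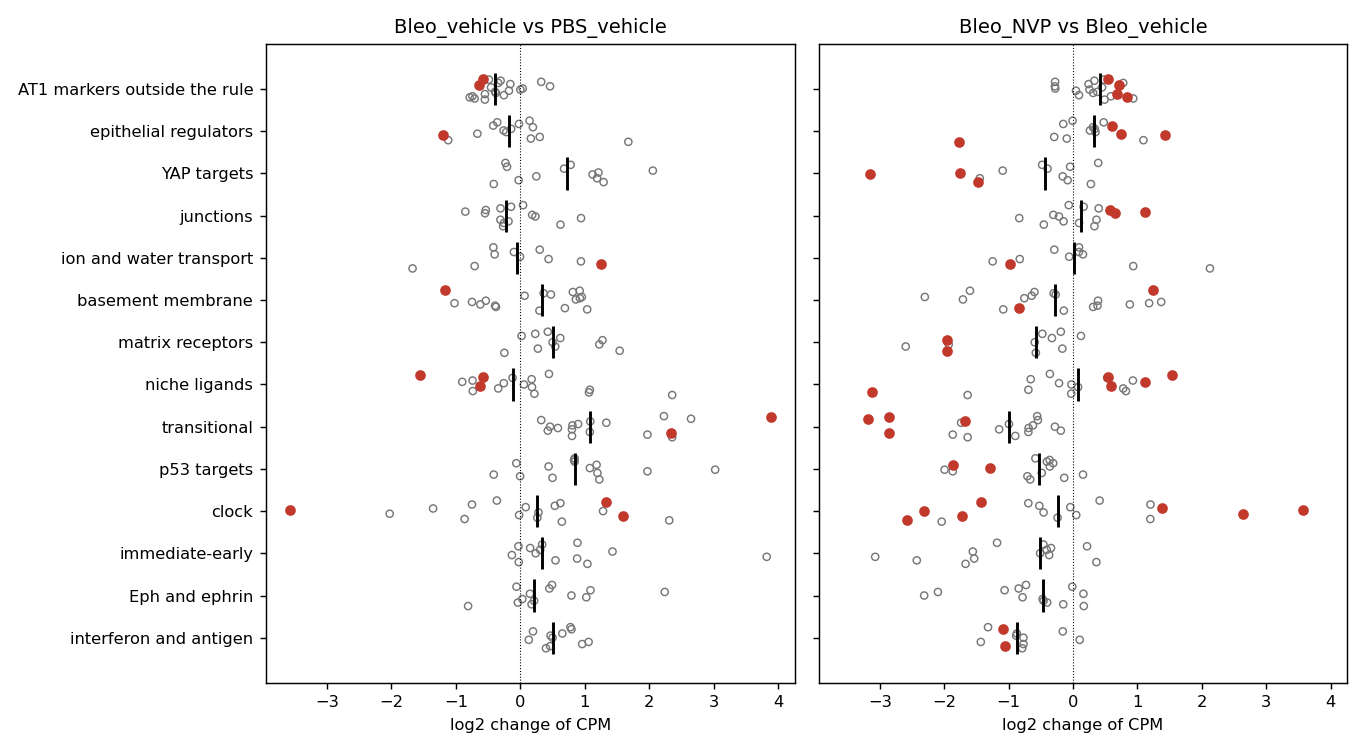
Log2 change of every tested gene of 14 lists in the 2 comparisons that share the Bleo_vehicle libraries, 1 point a gene, filled red where edgeR called it, with a bar at the list median. The list medians lie near 1.08 for transitional genes in the first comparison, and near -0.39 and 0.41 for the AT1 genes outside the rule. Mitochondrial transcripts are not drawn.

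Genes of the circadian clock moved in opposite directions within their list. The clock is a feedback loop in which Clock or Npas2, paired with Arntl, switch on the Per, Cry and Nr1d genes, whose products then act back on the loop. Of 17 tested, 2 were higher and 1 lower in Bleo_vehicle than in PBS_vehicle, with a list median of 0.26. Nr1d1 encodes the repressor REV-ERBα (chromosome 11, 98767932 to 98775333, minus strand). It was at 32.5, 26.9 and 32.6 CPM in PBS_vehicle, 36.2, 30.5 and 43.5 CPM in PBS_NVP, 7.302, 3.01 and 1.16 CPM in Bleo_vehicle, and 38.9, 22.6 and 30.6 CPM in Bleo_NVP. The highest Bleo_vehicle mouse was below the lowest of the other 9, and the log2 changes were -3.58 ± 0.49 and 3.56 ± 0.49 (edgeR adjusted p = 0.0036 and 0.0032). Cry1, a repressor of Clock and Arntl (chromosome 10, 85131700 to 85185064, minus strand), went the other way. It was at 8.18, 11.8 and 11.3 CPM in PBS_vehicle, 35.7, 26.4 and 30.8 CPM in Bleo_vehicle, and 6.05, 14.3 and 6.97 CPM in Bleo_NVP (log2 1.6 ± 0.31 and -1.72 ± 0.33, edgeR adjusted p = 0.0202 and 0.0098).

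In the second comparison 3 clock genes were higher and 4 lower. Dbp, an output activator, was at 0.811, 3.01 and 0.847 CPM in Bleo_vehicle and at 14.7, 4.96 and 10.2 CPM in Bleo_NVP (log2 2.64). Nr1d2, the close relative of Nr1d1, was at 70.6, 102 and 36.99 CPM and then at 175, 203 and 159 CPM (log2 1.37). Npas2 (-2.31) and Bhlhe40 (-2.58) fell along with Cry1. Arntl and Clock themselves were not called in either comparison (edgeR adjusted p from 0.135 to 0.680), and Arntl was uneven among PBS_vehicle mice at 61.9, 9.52 and 19.3 CPM. The hour at which each lung was collected is not given in the sources used here, and its part was not tested.

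The promoters of Nr1d1 and Cry1 are shown because both genes were called in both comparisons and in opposite directions. Of 19 clock genes 16 were matched, with 21 promoter windows of 300 bases (250 before and 50 after the start, RefSeq, GRCm38.p6). Each window was searched on both strands for the E-box CACGTG, to which Clock and Arntl bind, the D-box TTANNTAA, to which Dbp binds, and the ROR element TAGGTCA or TGGGTCA, to which REV-ERB proteins bind. The Cry1 window held 1 match of these motifs and the Nr1d1 window no match, so matches could not overlap. At least 1 window of 5 clock genes held an E-box, of 2 a D-box and of 2 a ROR element, while 7.15%, 6.00% and 6.45% of all 32851 promoter windows did. The first are counts of genes, some with more than 1 window, and the second shares of windows, so they do not compare directly. The 250 bases before each start follow, 5′ to 3′ on the gene's strand, with the E-box in capitals. The Cry1 stretch lies at chr10:85185055-85185304 and holds 1 E-box, which begins 60 bases before the start, and the Nr1d1 stretch at chr11:98775378-98775627 holds none of these letters.
Cry1: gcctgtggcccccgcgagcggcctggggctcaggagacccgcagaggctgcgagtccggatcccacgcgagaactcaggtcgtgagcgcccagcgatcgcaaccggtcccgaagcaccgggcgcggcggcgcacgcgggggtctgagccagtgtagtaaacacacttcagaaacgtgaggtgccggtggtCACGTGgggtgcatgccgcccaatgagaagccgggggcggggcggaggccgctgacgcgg
Nr1d1: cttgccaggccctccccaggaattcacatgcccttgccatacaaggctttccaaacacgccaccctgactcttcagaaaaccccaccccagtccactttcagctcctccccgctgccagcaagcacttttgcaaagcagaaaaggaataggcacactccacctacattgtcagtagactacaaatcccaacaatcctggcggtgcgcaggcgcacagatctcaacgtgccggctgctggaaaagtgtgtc

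**Figure D4:**
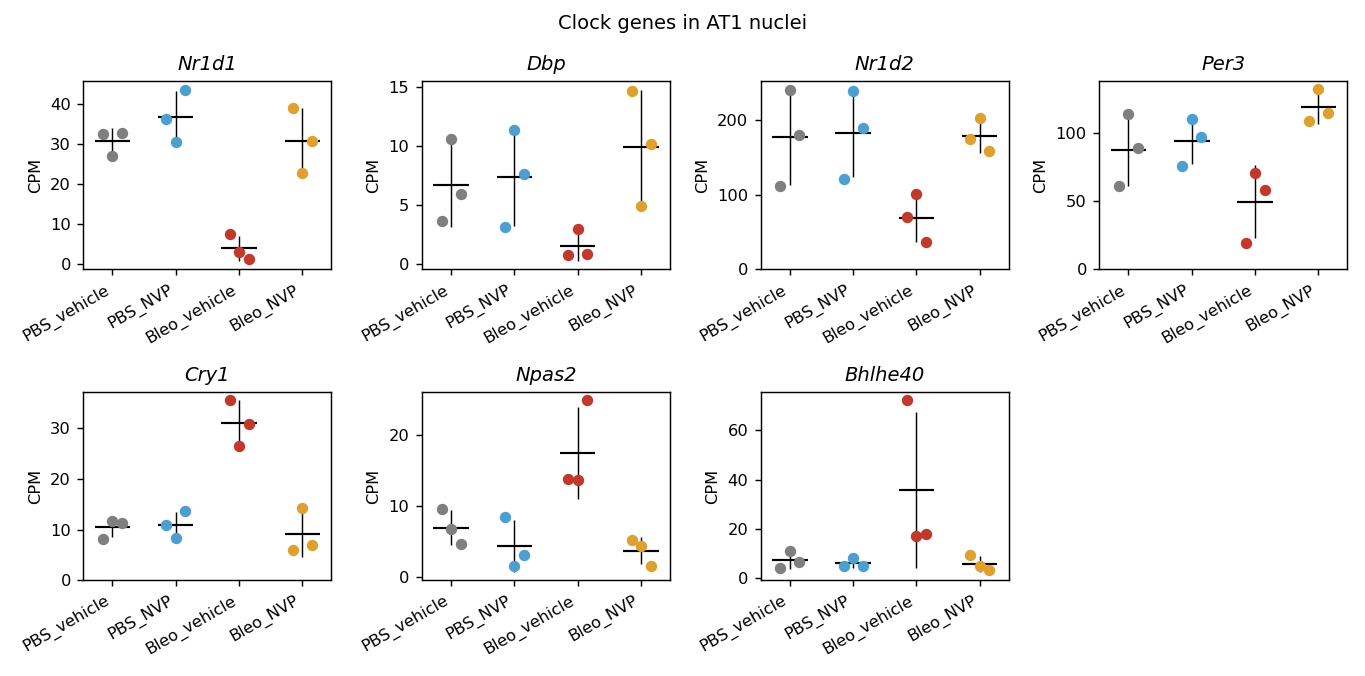
CPM of 7 clock genes in AT1 nuclei of each mouse by group, with mean and SD of 3 mice. Nr1d1, Dbp and Nr1d2 lie low in the 3 Bleo_vehicle mice, Per3 overlaps with PBS_vehicle, and Cry1, Npas2 and Bhlhe40 lie high in them.

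AT2 nuclei of the same libraries, 4417 in all, gave a comparison within each mouse, which was added after the values above had been seen. They numbered from 43 in Bleo_vehicle 1 (156603 UMIs) to 1493 in Bleo_vehicle 3 (6271875 UMIs), so low AT2 levels rest on few UMIs in the smaller libraries. An edgeR fit over AT1 and AT2 sums, with the mouse as a block, tested whether a difference was unlike in the 2 cell types. It covered 11496 genes, of which 350 differed for Bleo_vehicle against PBS_vehicle (3.04%, 195 more positive in AT1 and 155 more negative) and 410 for Bleo_NVP against Bleo_vehicle (3.57%, 172 and 238). Without Bleo_vehicle 2 these counts were 153 and 189, and the second was 214 without Bleo_NVP 1 and 198 without Bleo_NVP 3. Of the 20 AT1 genes outside the rule, 10 were more negative in AT1 after bleomycin and 0 more positive (median -1.09), and with the inhibitor 0 were more negative and 11 more positive (median 1.33). In nuclei with at least 0.5% marker UMIs 5 of the 10 lost their call (Igfbp2, Col4a3, Col4a4, Limch1 and Cav1), and 4 of the 11 did (Pdpn, Limch1, Spock2 and Akap5). Some of these had a higher mean in AT2 nuclei of Bleo_vehicle. Spock2, a secreted proteoglycan, had a mean of 377 CPM in AT1 and 2.73 CPM in AT2 nuclei of PBS_vehicle, and of 268 and 35.3 CPM in Bleo_vehicle, a difference of -2.79 ± 0.53 log2 units (edgeR adjusted p = 0.006). Akap5 was at 501 and 13.4 CPM and then at 339 and 32.1 CPM (-1.79 ± 0.34, edgeR adjusted p = 0.0025). Vegfa was at 2292 and 172 CPM and then at 1515 and 297 CPM (-1.28 ± 0.23, edgeR adjusted p = 0.0017).

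The 2 cell types thus lay closer in Bleo_vehicle, as a description over these 20 genes. The AT1 level was above the AT2 level by a median of 3.42 log2 units in PBS_vehicle, 2.42 in Bleo_vehicle and 3.8 in Bleo_NVP. The gap was wider in PBS_vehicle than in Bleo_vehicle for 20 of 20 genes, and wider in Bleo_NVP than in Bleo_vehicle for 19 of 20. Sftpd, a surfactant gene of AT2 cells, was at 20.6 CPM in AT1 and 644 in AT2 nuclei of PBS_vehicle and at 73.9 and 490.3 CPM in Bleo_vehicle (2.17 ± 0.40, edgeR adjusted p = 0.0079). The share of AT1 nuclei that met another class's rule and the summed free RNA, given above, differed between these libraries too, and their part was not tested. Npnt (-1.85) and Pde8b (-2.13) were more negative in AT1. For Nr1d1 the difference was 0.19 ± 0.52 (edgeR adjusted p = 1.0), its mean being 33.6 and 4.17 CPM in AT1 and 24.2 and 1.17 CPM in AT2 nuclei of PBS_vehicle and Bleo_vehicle.

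**Figure D5:**
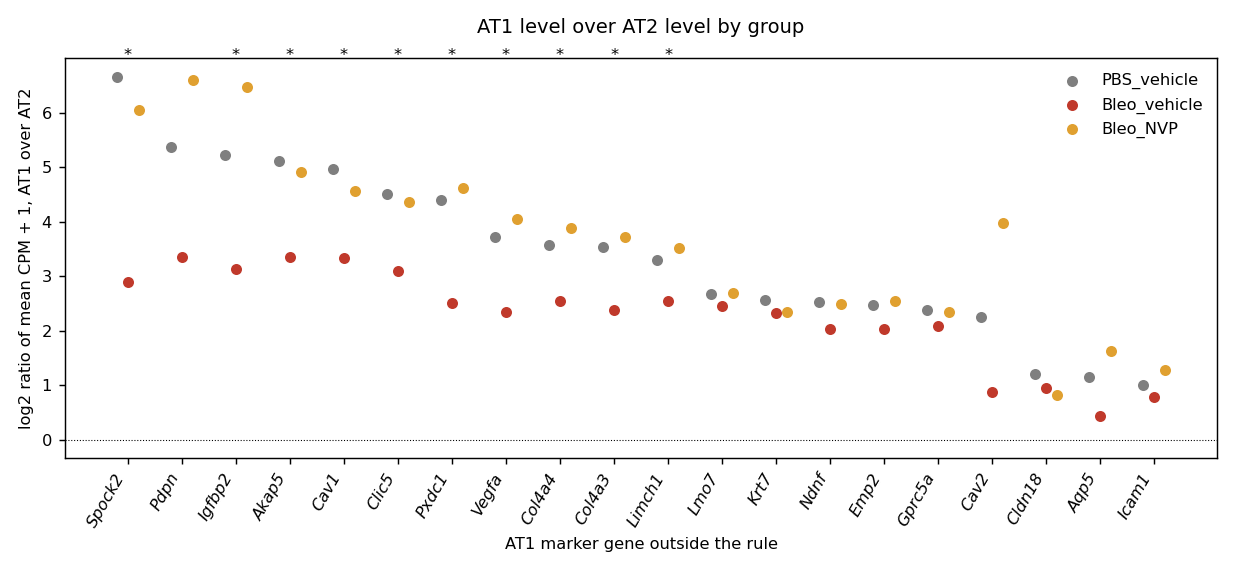
Log2 ratio of the mean CPM + 1 in AT1 over AT2 nuclei for the 20 AT1 genes outside the rule, in 3 groups. An asterisk marks genes whose change from PBS_vehicle to Bleo_vehicle differed between AT1 and AT2 (10 of 20), and the Bleo_vehicle points lie below PBS_vehicle in 20 of 20 genes.

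The inhibitor without bleomycin, PBS_NVP against PBS_vehicle, gave 0 calls of 10359 (0%) with edgeR and 0 with DESeq2, and 53 genes at an unadjusted p under 0.05 (0.512%). These 2 groups share run numbers 1 and 2, and with the run number as a block 0 were called. With the replicate block among the PBS mice 0 were called as well, 63 at an unadjusted p under 0.05, and in a blocked fit of these 6 libraries alone 0 and 284. Bleo_NVP against PBS_NVP, bleomycin under the inhibitor, also gave 0 calls with both tools and 321 genes at an unadjusted p under 0.05 (3.10%). Npnt, Wnt3a, Vegfa, Pdgfa and Nr1d1 overlapped between the groups of both comparisons, with most values given above. Whether the inhibitor's effect differed between bleomycin and PBS mice was tested by the interaction, which called 28 genes (0.27%), 9 positive (0.0869%) and 19 negative (0.183%), of which 11 were mitochondrial. Leaving out 1 mouse moved this count to between 3 (without Bleo_NVP 3) and 199 (without PBS_vehicle 1), and when mitochondrial genes and Malat1 were left out before scaling it was 0. With the replicate block among the PBS mice it was 368. Of the named genes, Chpt1 had an interaction of 1.67 ± 0.29 log2 units, Klf8, a transcriptional repressor, 1.6 ± 0.28, and Trp53bp2, a p53-binding protein, 1.4 ± 0.24, each more positive after bleomycin than after PBS (edgeR adjusted p from 0.033 to 0.042). Npnt, from the basement membrane list, gave 1.18 ± 0.18 (edgeR adjusted p = 0.0229). Spred2, an inhibitor of MAP kinase signalling, gave -2.18 ± 0.36, Dclk1 -2.09 ± 0.33 and the Arf regulator Iqsec1 -1.16 ± 0.21 (edgeR adjusted p from 0.0246 to 0.0431).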

How the data were processed

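Nuclei of 12 lungs, 3 mice in each of 4 groups taken from the sample labels, were sequenced with droplet barcodes. The deposited matrices hold whole-number counts of UMIs per gene and barcode, which the authors made from the reads, and the submitters' processing notes name Cell Ranger 7.0, Seurat 4.4.1 and mm10. The study's own workflow used DecontX for ambient RNA, DoubletFinder for doublets and Harmony to join libraries, and none of these was run here. Barcodes with under 200 genes (13), over 6000 genes (96) or over 5% mitochondrial UMIs (1739) were left out. Counts of AT1 nuclei were summed per mouse, giving 1231685 to 21542119 UMIs, so low genes are least precise in the smallest library. Of 24519 genes with a UMI, 10359 passed filterByExpr and were tested with edgeR 4.0.16 in R 4.3.3 (TMM, robust quasi-likelihood, all 4 groups in 1 fit, Benjamini-Hochberg adjusted p under 0.05). The 17 genes of the rule were left out of the tests.

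Named genes were called, averaged at least 10 CPM, did not overlap between the groups compared, were neither mitochondrial nor predicted genes, and were held at over 10 times the AT1 level by no other class. Of these the 10 largest log2 changes in each direction were taken, or 3 in each direction for the interaction. Of each list up to 4 members with the smallest p were named. Other members, such as Pdpn, Aqp5, Krt8, Cldn4, Cdkn1a, Sftpc, Sftpd, Spock2, Akap5, Arntl and Clock, were named for their role after their values were seen. The members and the lists were chosen with earlier results of these data known. Shares were compared by exact permutation of mice. AT1 and AT2 sums were fitted together with the mouse as a block, a comparison added after the data had been seen. Alternatives were DESeq2 1.42.0, RLE scaling, no filter on low counts, other definitions of the members, thinned sums, a replicate block, and leaving out each mouse. Replicate numbers come from the sample titles, and the labels do not say what they stand for. By the deviations of AT1 sums they paired the mice between PBS_vehicle and PBS_NVP (3 of 3 correlations over 0.1, the lowest 0.31). Between other groups at most 2 of 3 were over 0.1. A block for the PBS mice alone was therefore added after the data had been seen. By chi-square per degree of freedom, Bleo_NVP 2 and 3 also lay close to same-numbered PBS mice (2.17 to 2.86), and Bleo_NVP 1 did not. A block over the PBS and Bleo_NVP mice alone was not fitted. A few genes that the rule or the lists would name are not reported here. The tests were tried on simulated data. Tables and plots were made with Python 3.11.15 and matplotlib 3.10.9.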

Additional observations from a re-analysis of the deposited data

Results flagged for a closer look

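By the interaction term of the edgeR fit, the difference between inhibitor and vehicle mice was unlike after bleomycin and after PBS for 28 genes. Of these, 11 were mitochondrial, and no gene was called when mitochondrial genes and Malat1 were left out before scaling. Run and treatment cannot be told apart in this term. Each of the 6 named genes lost its call under some alternative. Among the named genes this interaction was 1.67 for Chpt1, 1.6 for Klf8, 1.4 for Trp53bp2, -2.18 for Spred2, -2.09 for Dclk1 and -1.16 for Iqsec1, in log2 units.

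The difference between Bleo_vehicle and PBS_vehicle was unlike in AT1 and AT2 nuclei for 350 genes in the joint edgeR fit. Dclk1 (2.33), Ptgs1 (2.27), C77080 (1.78) and Phlda1 (1.58) were more positive in AT1 nuclei, in log2 units. Pde8b (-2.13), Slc1a1 (-1.61), Epb41l3 (-1.58) and Chpt1 (-1.04) were more negative there. In nuclei with at least 0.5% marker UMIs 188 genes were called, and Ptgs1, Phlda1, Slc1a1 and Epb41l3 lost their call (edgeR adjusted p = 0.0566, 0.102, 0.0724 and 0.117).

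The difference between Bleo_NVP and Bleo_vehicle was unlike in the same way for 410 genes. Fam196a (3.78), Pde8b (2.39), Slc1a1 (2.36) and Epb41l3 (1.97) were more positive in AT1 nuclei, and Lyz2 (-3.86) and Mlph (-2.26) more negative. In nuclei with at least 0.5% marker UMIs 232 genes were called, and Epb41l3 and Mlph lost their call (edgeR adjusted p = 0.0625 and 0.0848). With 3 mice a group, no search for single outlying mice was made.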

How the results depend on the processing

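Counts of called genes depended on the tool, on the nuclei and on single mice, and the cause was not tested for any of them. For Bleo_vehicle against PBS_vehicle (308), DESeq2 called 636. In nuclei with at least 500 UMIs and at most 1% mitochondrial content 135 were called, with markers at 0.5% or more of UMIs 107, and in a fit of only the 6 libraries compared 48. Leaving out 1 mouse gave 69 to 448, with 69 without PBS_vehicle 3, 81 without Bleo_vehicle 2 and 87 without PBS_vehicle 2. For Bleo_NVP against Bleo_vehicle (972), the same filters on nuclei gave 332 and 269, and 510 were called when genes over 10 times higher in another class were left out. Leaving out 1 mouse gave 234 to 1228, with 234, 484 and 238 without Bleo_NVP 1, 2 and 3 and 291 without Bleo_vehicle 2.

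For the interaction (28), DESeq2 called 276, no filter on low counts 110, thinned sums 43, markers at 0.5% or more 14, and leaving out mitochondrial genes and Malat1 0. Leaving out 1 mouse gave 3 to 199. It was 199, 12 and 12 without PBS_vehicle 1, 2 and 3, 8 and 17 without PBS_NVP 1 and 3, 58, 8 and 97 without Bleo_vehicle 1, 2 and 3, and 6, 11 and 3 without Bleo_NVP 1, 2 and 3. For AT1 against AT2, markers at 0.5% or more gave 188 (of 350) and 232 (of 410), and the second was 265 without AT1 nuclei of another class. Leaving out 1 mouse gave 153 to 390 and 189 to 446, the lowest both without Bleo_vehicle 2, and the second was 214 without Bleo_NVP 1 and 198 without Bleo_NVP 3. PBS_NVP against PBS_vehicle and Bleo_NVP against PBS_NVP gave 0 under every alternative run.

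With the replicate number as a block the counts were 566, 1258 and 136 for the first comparison, the second and the interaction. With the block among the PBS mice only, whose numbers paired the samples, they were 1038, 1797 and 368. Between the other groups same-numbered mice correlated at -0.33 to 0.33, and the numbers were not taken to pair them. PBS_NVP against PBS_vehicle and Bleo_NVP against PBS_NVP had 0 calls with either block, and no named gene lost its call with the block among the PBS mice.

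Differences in the AT1 share, in percentage points, turned direction. Bleo_vehicle minus PBS_vehicle (2.00) was -0.13 without nuclei of another class, -0.36 with a stricter rule and -3.02 with markers at 0.5% or more. Bleo_NVP minus Bleo_vehicle (-0.942) was 2.63 in thinned nuclei, 3.53 without nuclei of another class, 2.29 when club markers were allowed, 2.28 with the stricter rule and 4.34 with markers at 0.5% or more. It was 0.128 without Bleo_NVP 2 and 0.814 without Bleo_vehicle 3. Leaving out 1 mouse gave 0.239 to 4.02 and -2.74 to 0.814 for these, -0.966 to 2.66 for PBS_NVP minus PBS_vehicle (0.637; -0.494 without PBS_NVP 1 and -0.966 without PBS_vehicle 2), and -1.26 to 1.55 for Bleo_NVP minus PBS_NVP (0.416; -1.09 without Bleo_NVP 1 and -1.26 without PBS_NVP 2).

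No named gene changed sign. Calls held under every alternative for 1 of 20 named genes in the first comparison (Chpt1), for 7 of 20 in the second (Ddx60, Epb41l3, Nr1d1, Pde8b, Pgpep1l, Pmepa1 and Slc1a1) and for 0 of 6 in the interaction. For AT1 against AT2 the genes followed were those that the joint fit called, named genes and AT1 genes outside the rule together. Their calls held under every alternative for 7 of 18 and 7 of 17, and with markers at 0.5% or more 9 of 18 and 11 of 17 kept their call. The markers at 0.5% setting, the block among the PBS mice, the leaving out of nuclei of another class but club, and the AT1 against AT2 comparison were added after seeing the data.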
